A study of Mus musculus with 12 samples.

Results

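The AMPA receptor genes described here were 10 genes taken by symbol from the gene-level counts of the mouse organ of Corti. They were the subunit genes Gria1, Gria2, Gria3 and Gria4, the genes of the auxiliary proteins Cacng2, Cacng5, Shisa6 and Cnih2, and the scaffold genes Grip1 and Grip2. They made up 10 of the 55348 genes in the files, and all 10 were among the 19052 genes that passed the filter on low counts. RNA was sequenced from organs of Corti at postnatal day 21, dissected free of the stria vascularis and the modiolus, with 3 libraries for each of 4 genotypes. Wild-type mice were compared with Clrn1-/- mice, which carry a constitutive deletion of exon 4 of Clrn1 made with PGK-cre, with Clrn2-/- mice, which carry the clarinet nonsense allele of Clrn2, and with Clrn1-/-Clrn2-/- double mutants obtained by crossing the 2 lines. Clarin-1 and clarin-2 are small membrane proteins with 4 predicted transmembrane segments, and the comparison addressed which molecular pathways in the whole organ of Corti differ when either or both are lost. Wild-type mice were bred apart from the mutants and no littermate controls were used, so that breeding and genotype cannot be told apart. Nothing in the sources used here says whether a library was made from 1 animal or from several, so the p-values measure the spread between these libraries only.

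AMPA receptors carry most fast excitatory transmission at glutamatergic synapses. Each receptor is a tetramer of the subunits GluA1 to GluA4, encoded by Gria1 to Gria4, and the presence of GluA2 (also called GluR2) keeps calcium from passing through the channel. Auxiliary proteins travel with the tetramer and set its delivery to the membrane and its gating. Stargazin, encoded by Cacng2, is the founding transmembrane AMPA receptor regulatory protein (TARP), and Cacng5 encodes a second-class member of that family. Cornichon 2 (Cnih2) helps receptors leave the endoplasmic reticulum, the CKAMP protein encoded by Shisa6 holds them at the synapse, and Grip1 and Grip2 are scaffolds with PDZ domains that bind the tails of GluA2 and GluA3. In the cochlea these receptors sit on the terminals of the spiral ganglion neurons, opposite the ribbon synapses of the inner hair cells.

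The end of the coding sequence is shown for the subunit genes, Cacng2 and Shisa6, and not for the other genes of the set. Scaffolds with PDZ domains, GRIP proteins among them, bind the last residues of their partners. Each line gives the last bases of 1 annotated coding transcript in Gencode M21 on GRCm38, written 5′ to 3′ on the coding strand and ending in the stop codon, with the last 4 codons before it in capitals.

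Gria1: gggatgcccttgggaGCCACAGGATTGtaa
Gria2: gtatatggcatcgagAGTGTTAAAATTtag
Gria3: gtgtatggaacagaaAGTGTTAAGATCtag
Gria4: ttggctgtcattgcaTCGGACCTACCAtaa
Cacng2: acagccaaccgccggACCACGCCCGTAtga
Shisa6: acagccagcaagactGAAGTGACCGTGtga

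These stretches lie at chr11:57327617-57327646 on the plus strand for Gria1, chr3:80689106-80689135 on the minus strand for Gria2, chrX:41672435-41672464 on the plus strand for Gria3, chr9:4420152-4420181 on the minus strand for Gria4, chr15:77995149-77995178 on the minus strand for Cacng2 and chr11:66217472-66217501 on the minus strand for Shisa6. All of them are exonic and coding. Gria2 and Gria3 shared 10 of the 12 capital bases, whereas Gria2 shared 2 of 12 with Gria1 and 2 of 12 with Gria4. The genes have other annotated isoforms, 8 annotated transcripts for Gria2 among them, and gene-level counts do not separate these.

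Between 30008679 and 41049302 reads per library were assigned to genes. The genotype labels were checked first. Clrn1 was at 1.77 to 3.04 CPM (read counts per gene scaled to a common library size by TMM) in the 6 libraries labelled Clrn1-/- or Clrn1-/-Clrn2-/-, against 23.8 to 31.5 CPM in the other 6. Clrn2 was at 0.921 to 1.38 CPM in the 6 libraries with the clarinet allele and at 1.89 to 3.24 CPM in wild-type, but it was also at 0.854 to 1.04 CPM in the Clrn1-/- libraries. These levels therefore do not separate the libraries labelled Clrn1-/- from those labelled Clrn1-/-Clrn2-/-. All 19 hair cell markers and all 14 supporting cell markers reached 1 CPM in at least 1 library of every genotype. So did all 20 general neuron markers, although the modiolus had been removed.

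The levels of the 10 genes can be compared with each other only per length, here as CPM per kilobase of exon. In wild-type the order was Gria4 (15.4 ± 1.07; SD, n = 3 here and below), Cacng2 (14.2 ± 0.591), Gria3 (10.8 ± 0.851), Cnih2 (7.02 ± 0.266), Cacng5 (6.74 ± 0.535), Gria2 (4.07 ± 0.432), Grip2 (2.93 ± 0.0826), Grip1 (2.13 ± 0.0766), Gria1 (2.00 ± 0.595) and Shisa6 (0.315 ± 0.0309). Gria4 and Cacng2, Cnih2 and Cacng5, and Grip1 and Gria1 did not differ beyond their spread. The order at the top depended on which length was used. Divided by the longest transcript in place of all exons, Gria3 came first at 20.5, Gria4 followed at 17.8, and Gria2 was at 6.10.

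In this text a gene is called when its edgeR quasi-likelihood test gave a p of at most 0.05 after Benjamini-Hochberg adjustment over all genes tested and its level differed by at least 1.5-fold. Relative to wild-type, 4 of the 10 genes were called lower in Clrn1-/-Clrn2-/- mice (Gria2, Cacng2, Cacng5 and Grip2) and 1 was called higher (Shisa6). Among all genes tested, 9.9% were called in this comparison, 4.02% lower and 5.88% higher. In Clrn1-/- mice 1 of 10 was called, Gria1, which was higher, against 7.22% of all genes. In Clrn2-/- mice 1 of 10 was called, Gria2, which was lower, against 2.66% of all genes.

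**Figure D1:**
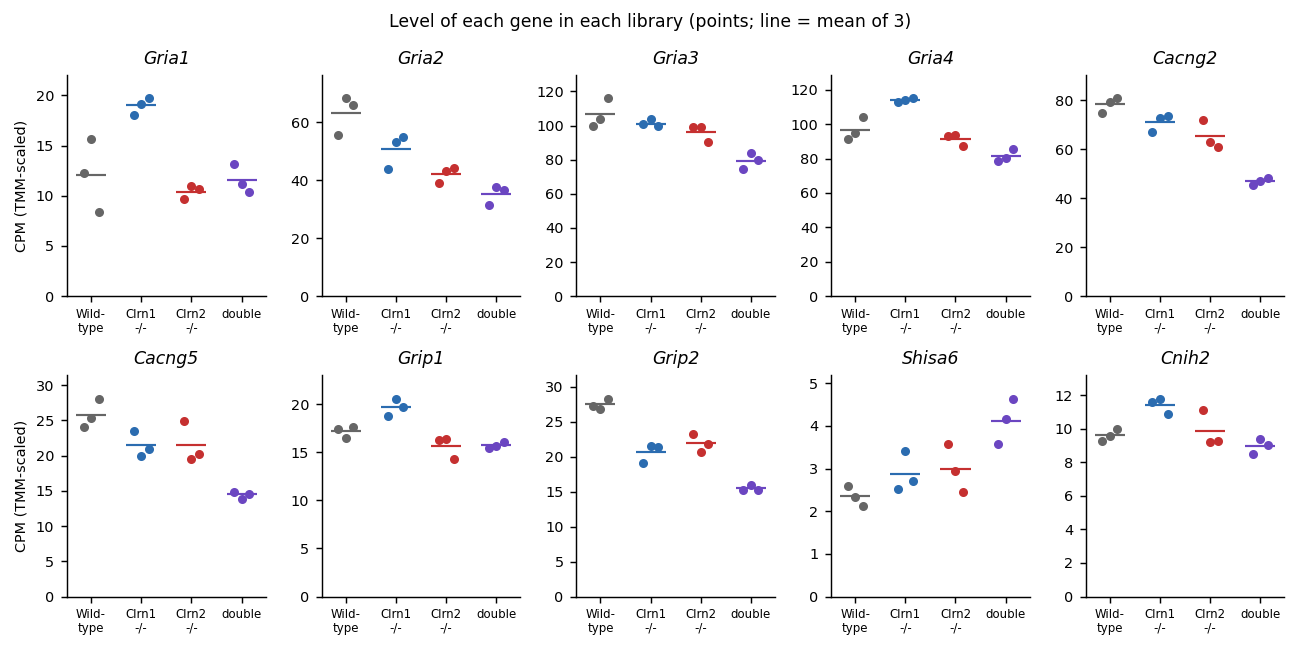
Level of each of the 10 genes in CPM (vertical axis, from 0, a separate scale for each gene) in the 3 libraries (points) of each genotype, with their mean (line). The 3 double-mutant libraries lay below all 3 wild-type libraries for 7 genes and above them for Shisa6, and the Clrn1-/- libraries of Gria1 lay between 18 and 19.7 CPM.

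Gria1, which encodes GluA1, was at 12.3, 15.6 and 8.40 CPM in the wild-type libraries, 18.0, 19.1 and 19.7 in Clrn1-/-, 9.71, 11 and 10.7 in Clrn2-/- and 13.2, 11.2 and 10.4 in Clrn1-/-Clrn2-/-. The Clrn1-/- libraries were above all the others, and the other 3 genotypes overlapped. The level in Clrn1-/- was 1.57-fold that of wild-type (log2 fold change 0.65, SE 0.15, edgeR adjusted p = 0.0046), 1.82-fold that of Clrn2-/- (log2 fold change 0.86, SE 0.15, edgeR adjusted p = 0.00111) and well above that of the double mutants, which fell by 0.71 on the log2 scale against Clrn1-/- (SE 0.15, edgeR adjusted p = 0.00197). Double mutants and wild-type differed by less than the spread between libraries (-0.06, SE 0.16). The wild-type libraries of this gene spread more than those of the other 9, with a coefficient of variation of 29.8%. Without wild-type replicate 3, the lowest, the log2 fold change in Clrn1-/- was 0.44 and the call was lost for want of size (edgeR adjusted p = 0.00642).

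Gria2, which encodes the calcium-limiting subunit GluA2, was at 55.7, 68.3 and 66.0 CPM in wild-type, 44.0, 53.2 and 54.9 in Clrn1-/-, 38.9, 43.3 and 44.2 in Clrn2-/- and 31.5, 37.7 and 36.5 in Clrn1-/-Clrn2-/-. All 9 mutant libraries were below the 3 wild-type libraries, and the double mutants were below both single mutants as well. The double mutants were at 0.557 times the wild-type level (log2 fold change -0.84, SE 0.09, edgeR adjusted p = 2.9e-06). The change in Clrn2-/- mice, to 0.665 times wild-type, sat at the fold minimum, and its call was lost without Clrn2-/- replicate 1 (log2 fold change -0.53) and without wild-type replicate 2 (-0.53) or 3 (-0.56). It was also lost by library size alone, neuron marker scaling, a replicate block, unstranded counts and a fit of the 2 genotypes alone.  In Gencode M21, 111 exon bases of Gria2 are shared with a miRNA gene on the same strand, where reads can be left uncounted as ambiguous.

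Gria3, which encodes GluA3, was at 99.8, 104 and 116 CPM in wild-type, 101, 104 and 99.7 in Clrn1-/-, 98.9, 99.1 and 90.5 in Clrn2-/- and 74.5, 83.7 and 80.0 in Clrn1-/-Clrn2-/-. The double mutants were below the other 9 libraries, while the Clrn1-/- and wild-type libraries overlapped. The double-mutant level was 0.745 times wild-type (log2 fold change -0.42, SE 0.06, edgeR adjusted p = 2.7e-05), a difference larger than the spread between libraries but smaller than the fold minimum. Gria3 lies on the X chromosome, from 41400854 to 41678601 of GRCm38.

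Gria4, which encodes GluA4, was at 91.4, 94.8 and 104 CPM in wild-type, 113, 114 and 115 in Clrn1-/-, 92.9, 93.6 and 87.5 in Clrn2-/- and 78.7, 80.1 and 85.4 in Clrn1-/-Clrn2-/-. The Clrn1-/- libraries were above all others and the double mutants below all others. Against wild-type the log2 fold changes were 0.24 in Clrn1-/- (SE 0.05, edgeR adjusted p = 0.00238) and -0.25 in the double mutants (SE 0.05, edgeR adjusted p = 9.8e-04), both under the fold minimum. Between the Clrn1-/- and the double mutant libraries it fell by 0.49 on the log2 scale (SE 0.05, edgeR adjusted p = 3e-06).

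Because the subunits assemble together, the share of each in the sum of the 4, per exon length, was computed in every library. Gria2 made up 11.8, 13.5 and 12.5% in wild-type, 8.32, 9.73 and 10.0% in Clrn1-/-, 8.67, 9.44 and 10.3% in Clrn2-/- and 8.35, 9.51 and 9.12% in Clrn1-/-Clrn2-/-. The wild-type libraries stood above the 9 mutant libraries, and the 3 mutant genotypes overlapped. The Gria2 share differed between the 4 genotypes (exact permutation test over the 15400 partitions of the libraries, p = 0.013, adjusted over the 4 subunits 0.017). In the double mutants it was lower by 3.62 percentage points than in wild-type. The exact permutation p of each mutant against wild-type was 0.1, two-sided, the smallest that 3 libraries against 3 allow.

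The other shares differed between genotypes in other ways. Gria4 made up 47.6 ± 1.31% in wild-type (n = 3) and 52.1 ± 0.732, 50.5 ± 0.455 and 51.3 ± 1.39% in Clrn1-/-, Clrn2-/- and double mutants, every mutant library being above every wild-type library (4 genotypes, exact permutation p = 0.004, adjusted 0.008). Gria3 made up 33.5 ± 1.13% in wild-type and 29.6 ± 0.708% in Clrn1-/-, without overlap, against 34.0 ± 0.778% in Clrn2-/- and 32.0 ± 1.16% in double mutants, which both overlapped wild-type (exact permutation p = 0.0027, adjusted 0.008). Gria1 had its highest share in Clrn1-/- (9.02 ± 0.246%), against 6.25 ± 1.96% for wild-type, 6.03 ± 0.419% for Clrn2-/- and 7.65 ± 1.21% for double mutants (exact permutation p = 0.05, adjusted 0.05). These are shares of RNA in whole tissue and do not give the makeup of any receptor. The summed level of the 4 subunit genes was lowest in double mutants at 25.2 ± 0.784 CPM per kilobase of exon, followed by Clrn2-/- at 28.7 ± 0.934, wild-type at 32.2 ± 1.88 and Clrn1-/- at 34.8 ± 0.693.

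**Figure D2:**
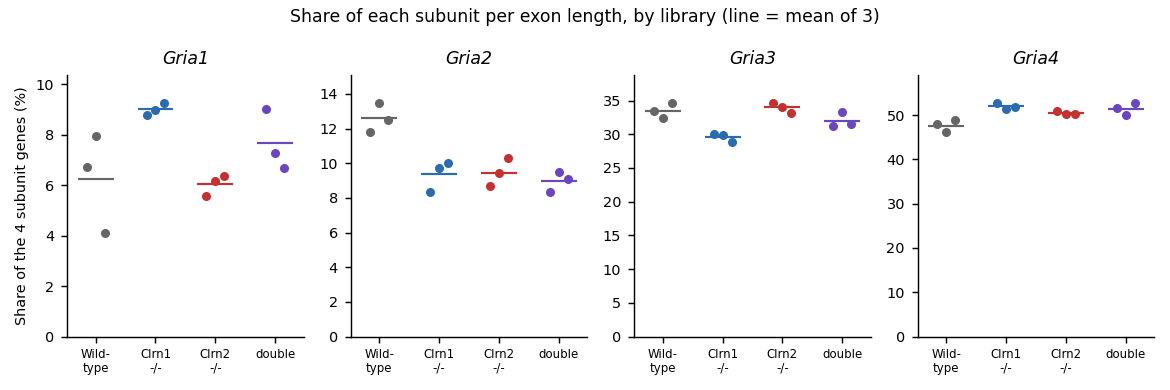
Share of each AMPA receptor subunit gene in the sum of the 4, per exon length (vertical axis, percent, from 0), in the 3 libraries (points) of each genotype, with their mean (line). The Gria2 share was between 11.8 and 13.5% in wild-type and between 8.32 and 10.3% in the mutants.

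Cacng2, which encodes stargazin, was at 74.7, 79.4 and 80.9 CPM in wild-type, 67.3, 72.7 and 73.8 in Clrn1-/-, 72.0, 63.0 and 61.0 in Clrn2-/- and 45.3, 47.1 and 48.3 in Clrn1-/-Clrn2-/-. All mutant libraries were below wild-type, and the double mutants were below both single mutants with no overlap. The double-mutant level was 0.599 times wild-type and 0.658 times Clrn1-/-, and both differences were called. An annotated antisense gene overlaps 323 exon bases of Cacng2, but the counts used are strand-specific and reads in the opposite orientation were 0.734% of those on the gene.

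Cacng5, the TARP of the second class, was at 24.1, 25.3 and 28.1 CPM in wild-type, 23.5, 20 and 21 in Clrn1-/-, 24.9, 19.5 and 20.2 in Clrn2-/- and 14.9, 13.8 and 14.6 in Clrn1-/-Clrn2-/-. The double mutants were below the other 9 libraries, whereas Clrn2-/- overlapped wild-type. The level in double mutants fell to 0.559 times that of wild-type (log2 fold change -0.84, SE 0.09, edgeR adjusted p = 3.4e-06). It was 0.673 times Clrn1-/- (edgeR adjusted p = 2.3e-04) and 0.670 times Clrn2-/- (edgeR adjusted p = 3.3e-04), neither reaching the fold minimum. The single mutants had log2 fold changes of -0.27 in Clrn1-/- (edgeR adjusted p = 0.0388) and -0.26 in Clrn2-/- (edgeR adjusted p = 0.0662). Cacng5 lies on chromosome 11, from 107874605 to 107915055 of GRCm38.

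Of the scaffold genes, Grip2 was called lower in double mutants and Grip1 was not called. Grip2 was at 27.2, 26.8 and 28.3 CPM in wild-type, 19.1, 21.5 and 21.4 in Clrn1-/-, 23.3, 20.6 and 21.8 in Clrn2-/- and 15.3, 15.9 and 15.3 in Clrn1-/-Clrn2-/-. All mutant libraries were below wild-type, the double mutants lowest, at 0.564 times wild-type, and the single mutants overlapped each other. Grip1 was at 17.4, 16.5 and 17.6 CPM in wild-type, 18.8, 20.6 and 19.7 in Clrn1-/-, 16.3, 16.4 and 14.3 in Clrn2-/- and 15.5, 15.7 and 16.1 in Clrn1-/-Clrn2-/-. For Grip1 the Clrn1-/- libraries were the highest, with a log2 fold change of 0.20 against wild-type (SE 0.07, edgeR adjusted p = 0.0346), and the double mutants differed from wild-type by -0.12 (SE 0.07, edgeR adjusted p = 0.183).

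Shisa6, on chromosome 11 from 66211725 to 66525964, was the only one of the 10 with higher levels in the double mutants. It was at 2.58, 2.33 and 2.13 CPM in wild-type, 2.53, 3.42 and 2.70 in Clrn1-/-, 3.58, 2.94 and 2.44 in Clrn2-/- and 3.57, 4.16 and 4.64 in Clrn1-/-Clrn2-/-. The double mutants were above wild-type and Clrn1-/-, but their lowest library fell just under the highest of Clrn2-/-. The double-mutant level was 1.77-fold that of wild-type (log2 fold change 0.82, SE 0.17, edgeR adjusted p = 9.8e-04). It was the least abundant of the set, with 80 to 180 reads in a library.

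Cnih2, the cornichon, was at 9.27, 9.56 and 9.99 CPM in wild-type, 11.6, 11.8 and 10.9 in Clrn1-/-, 11.1, 9.24 and 9.25 in Clrn2-/- and 8.52, 9.39 and 9.05 in Clrn1-/-Clrn2-/-. The Clrn1-/- libraries were above wild-type (log2 fold change 0.25, SE 0.08, edgeR adjusted p = 0.0365), and the other 2 mutants overlapped wild-type.

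**Figure D3:**
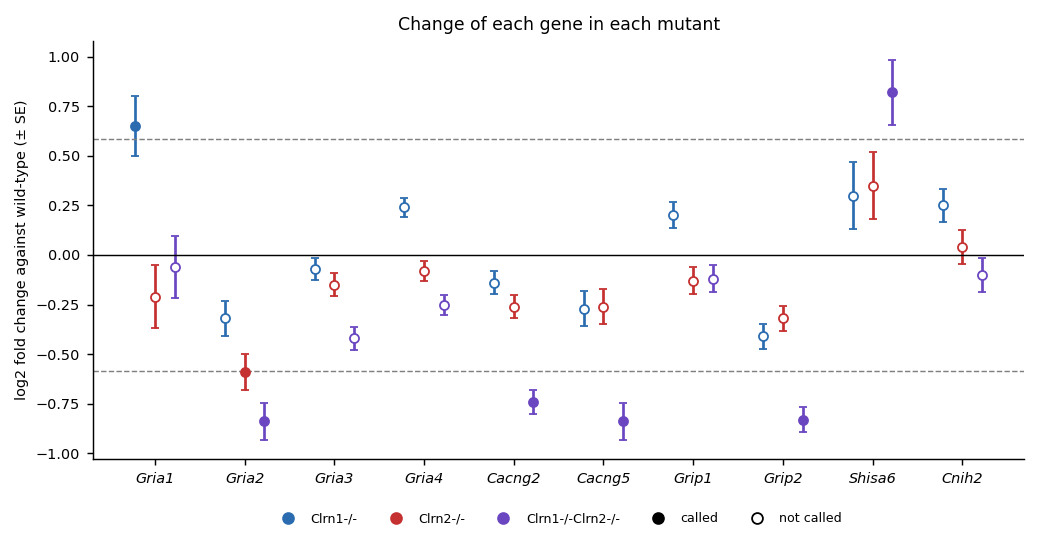
Log2 fold change of each gene against wild-type (vertical axis) in Clrn1-/-, Clrn2-/- and Clrn1-/-Clrn2-/- mice, with the standard error of the edgeR fit (bars), called changes filled and the fold minimum of 1.5 dashed. In the double mutants Gria2, Cacng2, Cacng5 and Grip2 lay between -0.84 and -0.74 and Shisa6 at 0.82, and in Clrn1-/- Gria1 lay at 0.65.

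With no fold required, an adjusted p of at most 0.05 was reached by 7 of 10 genes in Clrn1-/- (4 higher and 3 lower), by 3 in Clrn2-/- (all lower) and by 7 in double mutants (1 higher and 6 lower), against 26.9, 14.2 and 37% of all genes. On the lower side alone the share of all genes in double mutants was 17.9%. All 3 double-mutant libraries were below all 3 of wild-type for 7 of 10 genes, against 23.2% of all genes. The corresponding counts were 4 of 10 in Clrn1-/- (19.8% of all genes) and 5 of 10 in Clrn2-/- (14.4% of all genes). The median log2 fold change of the 10 genes was 0.06 in Clrn1-/-, -0.18 in Clrn2-/- and -0.34 in double mutants, where the median over all genes was -0.0031, -0.0025 and 0.0010. In Clrn1-/- mice the set was divided at any size, with Gria2, Cacng5 and Grip2 lower and Gria1, Gria4, Grip1 and Cnih2 higher at an adjusted p of at most 0.05.

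Direct comparisons between mutants called few of the 10 genes. Between Clrn1-/- and Clrn2-/- mice 1 was called (Gria1; 4.73% of all genes), and at any size Gria4 and Grip1 were also higher in Clrn1-/- (log2 fold changes 0.32 and 0.33, edgeR adjusted p-values 3.7e-04 and 0.0028). Between double mutants and Clrn1-/- mice 2 were called lower (Gria1 and Cacng2; 7.23% of all genes called), and all 10 had an adjusted p of at most 0.05 when no fold was required (30.4% of all genes), 9 lower and Shisa6 higher. Between double mutants and Clrn2-/- mice edgeR called 0 of 10 (5.1% of all genes), as did limma-voom and DESeq2, but 7 had an unadjusted edgeR p under 0.05 and 6 an adjusted p of at most 0.05 (27.6% of all genes), with Cacng5 (-0.58), Grip2 (-0.50) and Cacng2 (-0.48) falling most. Both of these comparisons share the double-mutant libraries, and their counts were sensitive to single libraries. Leaving out any 1 of the 6 libraries raised the first count to 3 or 4, with Gria2, Cacng5 or Shisa6 added. The second became 1 without Clrn2-/- replicate 1 (Shisa6), and 1 without Clrn2-/- replicate 2 or 3 or double-mutant replicate 1 or 3 (Cacng5).

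Whether the double-mutant change differed from the sum of the changes in the single mutants was tested as an interaction on the log2 scale. At the fold minimum 0 of 10 genes were called by edgeR, limma-voom and DESeq2, against 5.5% of all genes in edgeR. The unadjusted edgeR p was under 0.05 for 6 genes. With adjustment and no fold required, 3 of 10 genes passed (17.4% of all genes), all lower than the sum: Gria4 (-0.40, SE 0.07, edgeR adjusted p = 0.00113), Cacng2 (-0.34, SE 0.08, edgeR adjusted p = 0.0109) and Cnih2 (-0.38, SE 0.12, edgeR adjusted p = 0.0372). For Gria2 the interaction was 0.06 (SE 0.13, edgeR adjusted p = 0.798) and for Grip2 -0.10 (SE 0.09, edgeR adjusted p = 0.523). Gria1 had the largest interaction of the 10, -0.51, with a wide error (SE 0.22, edgeR adjusted p = 0.13), and without wild-type replicate 2 it was called at -0.75.

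Most neuron markers were lower in double mutants, as were most of the 10 genes. In Clrn1-/- mice the median log2 fold change was -0.19 for the neuron markers and 0.11 for the spiral ganglion markers. There the median of the 10 genes was 0.06, with 5 lower and 5 higher. The summed level of the 20 neuron markers was 15200 to 16700 CPM in wild-type, 13900 to 14500 in Clrn1-/-, 13200 to 15200 in Clrn2-/- and 10700 to 10900 in double mutants. In double mutants 6 of the 20 were called lower, among them Snap25 (-0.73) and Ina (-0.74), against 4.02% of all genes. Another 2 were called higher, against 5.88% of all genes. The marker median was -0.47 and the highest value 1.02. The spiral ganglion markers summed to 4850 to 5400 CPM in wild-type and 3530 to 3760 in double mutants, with 2 of 14 tested called lower, 1 higher and a median of -0.14. In bulk tissue, fewer cells of a type and less RNA per cell cannot be told apart. Hair cell markers summed to 698 to 773 CPM in wild-type and 826 to 855 in double mutants, and those of Schwann and satellite glia to 23600 to 24600 and 22100 to 23600.

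Scaled to the neuron markers in place of all genes, none of the 4 falls in double mutants kept the fold minimum. On that scale the median over all genes tested was 0.44, and the log2 fold changes against wild-type were -0.40 for Gria2, -0.30 for Cacng2, -0.39 for Cacng5 and -0.38 for Grip2, with edgeR adjusted p-values of 0.00178, 4.8e-05, 6.59e-04 and 7.01e-05. The calls over all genes were 5207 higher and 213 lower on this scale, against 1120 and 766 with TMM. These 4 genes remained lower on this scale, which is set by the median of the neuron markers. With TMM the markers themselves ran from -0.74 to 1.02, and Cacng2 was at -0.74. Gria1 (0.37), Gria4 (0.19), Grip1 (0.32) and Cnih2 (0.35) turned to positive values on the neuron marker scale, Gria3 was at 0.02 and Shisa6 rose to 1.26. Scaled to the 19 hair cell markers, a choice made after the data were seen, the same 4 genes were called lower, between -1.03 for Gria2 and -0.93 for Cacng2, and Gria3 was called as well at -0.61, the median over all genes being -0.18 with 686 higher and 1688 lower calls.

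**Figure D4:**
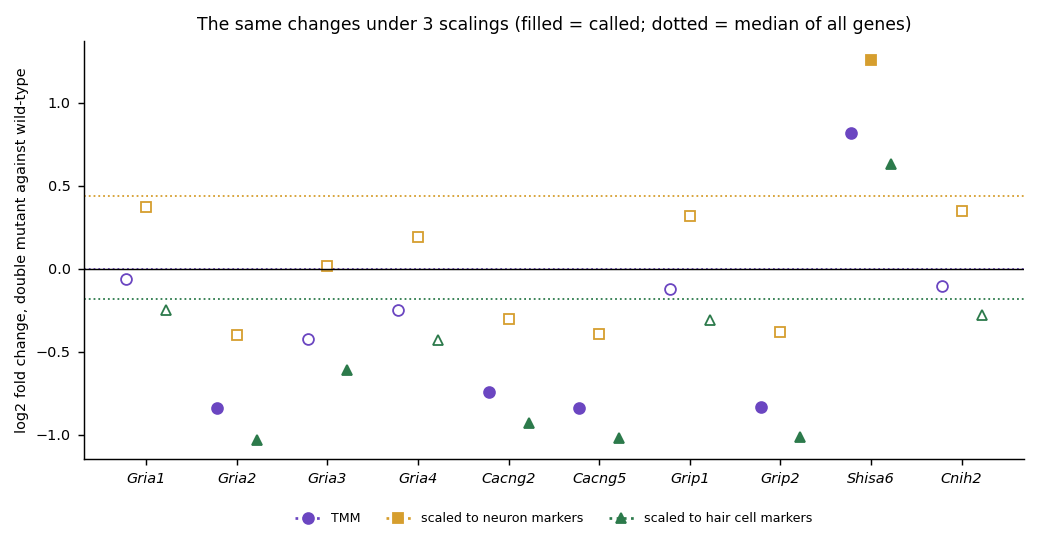
Log2 fold change of each gene in Clrn1-/-Clrn2-/- mice against wild-type (vertical axis) with libraries scaled to all genes by TMM (circles), to 20 neuron markers (squares) or to 19 hair cell markers (triangles), called changes filled and the median of all genes under each scaling dotted. Scaled to the neuron markers, Gria2, Cacng2, Cacng5 and Grip2 stayed between -0.40 and -0.30, whereas Gria1, Gria4, Grip1 and Cnih2 turned positive.

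Markers of other cells moved as well. Supporting cell markers summed to 4330 to 4960 CPM in wild-type, 5200 to 5910 in Clrn1-/-, 5250 to 6400 in Clrn2-/- and 8860 to 9530 in double mutants, with 7 of 14 called higher and 1, Prox1, called lower (-0.83) in the last. Among all genes 5.88% were called higher and 4.02% lower in double mutants. Most of the sum in double mutants came from Ceacam16 (1350 ± 112 CPM in wild-type and 3960 ± 221 in double mutants) and Fbxo2 (1000 ± 113 and 2110 ± 39). Macrophage markers summed to 144 to 182, 226 to 240, 164 to 209 and 227 to 267 CPM in the same order. Red blood cell markers summed to 710 to 1160 CPM for wild-type, 286 to 389 for Clrn1-/-, 438 to 657 for Clrn2-/- and 547 to 738 for double mutants, with 6, 5 and 2 of 7 called lower in the mutants. The shares of all genes called lower were 3.7, 1.42 and 4.02%. Of the 10 skeletal muscle markers, 9 were under 1 CPM in all double-mutant libraries and 7 in all wild-type libraries, and the exception with a high level in each was Pvalb, which neurons and hair cells also express (565 ± 43.5 CPM in wild-type and 394 ± 14.2 in double mutants). The part of any of these markers in the changes of the receptor genes was not tested.

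The wider AMPA receptor pathway was followed in a list of 38 other genes, of which 36 were tested, covering further TARPs, cornichons, SHISA and olfactomedin proteins, assembly and trafficking factors, postsynaptic scaffolds, pentraxins and RNA editing enzymes. In double mutants edgeR called 2 of 36 lower and 0 higher (2 were higher at an unadjusted p under 0.05), and limma-voom and DESeq2 each called 2 in all. The shares called over all genes were 4.02% lower and 5.88% higher. At any size, 19 of 36 had an adjusted p of at most 0.05 on the lower side, against 17.9% of all genes, and 1 on the higher side, and the median log2 fold change was -0.22. The 2 called genes were Olfm3, which encodes a secreted olfactomedin found in native receptor complexes, and Shisa8, a relative of Shisa6. Olfm3 was at 18.9, 23.5 and 20.6 CPM in wild-type and at 9.47, 9.99 and 9.90 in double mutants (log2 fold change -1.10, SE 0.10, edgeR adjusted p = 3.3e-07), with the Clrn1-/- libraries at 13.1 to 16.4 and the Clrn2-/- libraries at 12.3 to 14.5, all below wild-type. Shisa8 was at 19.5, 30.5 and 8.88 CPM in wild-type and at 9.80, 5.65 and 8.12 in double mutants, so that the groups overlapped through wild-type replicate 3 (log2 fold change -1.32, SE 0.34, edgeR adjusted p = 0.00572). Its direction was opposite to that of Shisa6.

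Of the other TARPs tested in double mutants, Cacng7 was at -0.45 (edgeR adjusted p = 4.3e-07), Cacng8 at -0.46 (edgeR adjusted p = 0.0318) and Cacng4, whose libraries overlapped wild-type, at -0.27 (edgeR adjusted p = 0.0499). The postsynaptic scaffolds of the Dlg family differed in direction. Dlg4, which encodes PSD-95, was at -0.24 (edgeR adjusted p = 1.4e-04), Dlg2 at -0.37 (edgeR adjusted p = 4.5e-05) and Dlg3 at 0.15 (edgeR adjusted p = 0.052). Epb41l1, which encodes an actin-linked partner of GluA1, was at -0.43 (edgeR adjusted p = 2e-05). Dlg1, the gene of SAP97, was the 1 gene of the list to pass on the higher side, at 0.24 (edgeR adjusted p = 0.00907). Adarb1, whose product edits the GluA2 transcript, was at -0.10 (SE 0.07, edgeR adjusted p = 0.299), and counts per gene do not show editing.

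In the single mutants the list held 3 called genes of 36 in Clrn1-/- and 1 of 36 in Clrn2-/-, shares near those of all genes (7.22 and 2.66%). In Clrn2-/- mice the called gene was Olfm3 (log2 fold change -0.67, SE 0.09, edgeR adjusted p = 2e-04). That call was lost without wild-type replicate 2 and when scaled to neuron markers (-0.56). In Clrn1-/- mice Nptx2, a neuronal pentraxin that clusters AMPA receptors, was lower at -0.70 (edgeR adjusted p = 0.0101) and Shisa8 at -0.99 (edgeR adjusted p = 0.0361). Without Clrn1-/- replicate 1 or 2 both calls were lost, and that of Shisa8 also without wild-type replicate 1 or 2. Scaling to neuron markers also ended the Nptx2 call (-0.56). The Shisa8 call was lost in 9 of 16 alternatives in all, among them limma-voom (adjusted p = 0.1), DESeq2 (adjusted p = 0.0829), the 2 genotypes alone (edgeR adjusted p = 0.0977) and a replicate block (-0.93, edgeR adjusted p = 0.0611).

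Gsg1l, whose product is an AMPA receptor auxiliary protein of the claudin family, was higher in Clrn1-/- than in the other 3 genotypes. It was at 1.10, 1.21 and 1.09 CPM in wild-type, 3.73, 3.65 and 3.56 in Clrn1-/-, 1.48, 1.10 and 1.43 in Clrn2-/- and 1.18, 1.22 and 1.21 in Clrn1-/-Clrn2-/-. The 3 Clrn1-/- libraries were above all other libraries, with 118 to 141 reads against 36 to 55. The level was 3.22-fold that of wild-type (log2 fold change 1.69, SE 0.15, edgeR adjusted p = 8.8e-07), and in double mutants, which also lack Clrn1, it was 1.07-fold. The interaction was -1.84 (SE 0.22, edgeR adjusted p = 5.2e-05). Like Gria1, Gsg1l had its highest level in Clrn1-/-, and it was called against each of the other 3 genotypes.

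Of the 10 kainate and delta receptor genes and their partners, all tested, 0 were called by edgeR, limma-voom or DESeq2 in double mutants, and 3 had an unadjusted edgeR p under 0.05. Of all genes, edgeR called 9.9% there. The median log2 fold change there was -0.02. At an adjusted p of at most 0.05 with no fold required, 3 differed, against 37% of all genes: Grik4 lower (-0.38), and Grid1 (0.32) and Neto2 (0.37) higher. In Clrn1-/- mice 1 of 10 was called (7.22% of all genes), Neto2, which encodes a kainate receptor auxiliary protein. It was at 9.72, 9.81 and 9.79 CPM in wild-type and 18.3, 14.1 and 14.7 in Clrn1-/- (log2 fold change 0.68, SE 0.09, edgeR adjusted p = 3.9e-05), and without Clrn1-/- replicate 1 the call was lost at 0.56.

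**Figure D5:**
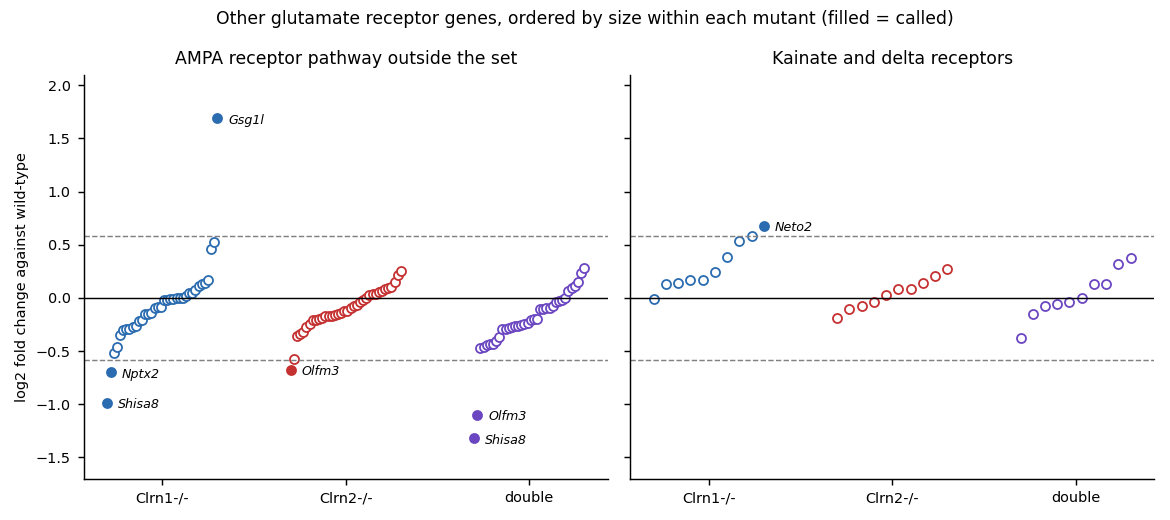
Log2 fold change against wild-type (vertical axis) of 36 other AMPA receptor pathway genes (left) and 10 kainate and delta receptor genes (right) in Clrn1-/-, Clrn2-/- and Clrn1-/-Clrn2-/- mice, ordered by size, with called genes filled and named and the fold minimum of 1.5 dashed. Gsg1l stood at 1.69 in Clrn1-/-, and Shisa8 and Olfm3 at -1.32 and -1.10 in double mutants.

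The genes whose levels ran most nearly parallel to Gria2 and Cacng2 were sought among the 15405 genes averaging 1 CPM or more, by Pearson's r of the log2 CPM over the 12 libraries. These libraries share genotypes and depth, so r is a description. For Gria2 they were Celf5 (0.971), Olfm3 (0.965), Mir124a-1hg (0.953), Pdzd7 (0.952) and Abcc8 (0.943), with log2 fold changes in double mutants between -1.10 for Olfm3 and -0.64 for Celf5. For Cacng2 they were Apba2 (0.994), Spock2 (0.991), Ankrd55 (0.990), Clstn3 (0.987) and Rap1gap (0.987), with log2 fold changes between -0.62 for Rap1gap and -0.49 for Clstn3 and Spock2. The 2 sets had no gene in common.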

How the data were processed

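RNA-seq counts of 12 organ of Corti libraries at postnatal day 21 were used, 3 for each of 4 genotypes taken from the labels. The libraries were made with a directional poly-A protocol and read from both ends over 100 bases. The authors aligned reads with STAR to GRCm38.p6 and deposited raw counts per gene of a Gencode annotation, unstranded and for each strand. The reverse-strand counts were used here, and reads not assigned to a gene (13.5 to 15.8% of a library) were left out. Depth was 30008679 to 41049302 reads on genes. All genes were fitted in edgeR 4.0.16 (R 4.3.3) with TMM scaling, filterByExpr (minimum count 10) and the quasi-likelihood test, 12 libraries in 1 fit with genotype as the only term, after a check on simulated counts. Alternatives were limma-voom (3.58.1), the study's test, DESeq2 (1.42.0), other scalings, filters and strands, a replicate block, and leaving out each library. Hair cell marker scaling, and the alternatives for genes outside the 10, were added after the data were seen. CPM values are TMM-scaled. Exon lengths, positions and sequences came from Gencode M21, an earlier release than the authors'. Named were all 10 genes, the called genes of the pathway and kainate lists, and the 5 genes most correlated with Gria2 and with Cacng2; other list genes were named as examples after their values were seen. The genes and lists were chosen with earlier results of these data known. The authors' own comparison tables were not used. Deviations of same-numbered libraries from their genotype means correlated over 0.1 in every pair only for Clrn1-/- and wild-type (0.103 to 0.254). Over the other genotype pairs the correlations ran from -0.275 to 0.298. Libraries with different numbers ran from -0.45 (double-mutant replicate 1 with wild-type replicate 3) to 0.381 (Clrn2-/- replicate 1 with wild-type replicate 3). The labels give the numbers no meaning, and the main fit took no libraries as paired.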

Additional observations from a re-analysis of the deposited data

Results flagged for a closer look

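In 3 of the 10 genes the difference between double mutants and wild-type departed from the sum of the single-mutant differences by a test of that departure: Gria4 by -0.40, Cacng2 by -0.34 and Cnih2 by -0.38 on the log2 scale, with edgeR adjusted p-values of 0.00113, 0.0109 and 0.0372. Over 21 alternative settings these ran from -0.47 to -0.23, -0.41 to -0.16 and -0.45 to -0.21. Scaled to neuron markers, the all-gene median of the interaction was 0.179. For Gria4 and Cnih2 the Clrn1-/- level was above wild-type and that of the double mutants was not. All mutant libraries of Cacng2 were below wild-type, but in Clrn1-/- its difference did not pass (-0.14, edgeR adjusted p = 0.101).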

How the results depend on the processing

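The double-mutant count of 5 called genes became 1 when scaled to neuron markers and stayed within 1.5 times of 5 under every other alternative tried, hair cell scaling included, which was added after the data were seen. The Clrn1-/- count of 1 became 7 with no fold minimum and 0 to 1 with a library left out (0 without wild-type replicate 3). The Clrn2-/- count of 1 became 0 by library size alone, neuron marker scaling, a replicate block, unstranded counts and a fit of the 2 genotypes alone, 3 with no fold minimum, and 0 to 1 with a library left out. With no fold minimum the counts were 3 between the single mutants, 10 for double mutants against Clrn1-/-, 6 against Clrn2-/- and 3 for the interaction. Scaled to neuron markers, the counts against Clrn1-/- and Clrn2-/- were 1 each, in both cases Shisa6 called higher. The lower calls of Gria1 and Cacng2 against Clrn1-/- were lost on that scale. With no filter the count against Clrn2-/- was 1. With a library left out the counts against Clrn1-/- and Clrn2-/- ran from 3 to 4 and 0 to 1, and the interaction from 0 to 1. The Gria2 share kept its direction and its test in all alternatives tried. The replicate block ended the Clrn2-/- call of Gria2 at -0.58 and moved no other count of called receptor genes, and the Gria2 share then had an exact permutation p of 0.026.

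Some log2 values turned sign, among them Gria3 and Gria4 in double mutants against wild-type, which were -0.42 and -0.25 with TMM. Scaled to neuron markers, with all-gene medians of 0.15 and 0.11 in the single mutants, these were Gria3 0.08 and Cacng2 0.01 in Clrn1-/-, Gria4 0.03 in Clrn2-/-, and Gria1 0.37, Gria3 0.02, Gria4 0.19, Grip1 0.32 and Cnih2 0.35 in double mutants, all against wild-type. On the same scale they were Cacng5 0.04 for Clrn1-/- against Clrn2-/-, Gria2 0.06, Gria3 0.05, Gria4 0.16 and Cnih2 0.20 for double mutants against Clrn2-/-, and Grip2 0.08 for the interaction. With hair cell scaling Gria3 was 0.03 in Clrn1-/- and Cnih2 -0.16 in Clrn2-/-. Between single mutants Cacng5 was 0.01 by library size alone, and for double mutants against Clrn2-/- Grip1 was 0.00 with no filter. With a library left out, against wild-type, Gria1 ran from -0.42 to 0.02 and Cnih2 from -0.05 to 0.09 in Clrn2-/-, and Gria1 from -0.28 to 0.16 in double mutants. Cacng5 ran from -0.07 to 0.10 and Shisa6 from -0.19 to 0.10 between single mutants, Grip1 from -0.07 to 0.04 for double mutants against Clrn2-/-, and Gria2 from -0.05 to 0.13 for the interaction. The cause was not tested. Counts of 80 to 180 reads limit Shisa6.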
